A study of Homo sapiens with 4 samples.

Results

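The sodium pump (Na+/K+-ATPase) was described through the probes of its subunits and of the FXYD proteins, on cDNA arrays of A549 cells with and without overexpressed let-7a-3. Members were probes whose platform annotation gave exactly 1 symbol, and that symbol had to be an ATP1A or ATP1B subunit or an FXYD gene. The rule found 15 of 26629 probes, for 9 of 12483 genes. These were 3 beta subunit genes (ATP1B1, ATP1B3 and ATP1B4) with 5 probes and 6 FXYD genes (FXYD1, FXYD2, FXYD4, FXYD5, FXYD6 and FXYD7) with 10 probes. The catalytic alpha subunits, ATP1B2 and FXYD3 were not analysed here. This gene family was chosen on the large shared log ratio of ATP1B3 over the 4 arrays, so that value is described and not tested.

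The study used 4 two-colour arrays of A549, a human lung adenocarcinoma line. Each array carried RNA of 1 A549 culture transfected with let-7a-3, which encodes a let-7 microRNA, and of 1 parental A549 culture as the control. All cultures grew in DMEM with fetal calf serum and are labelled as otherwise untreated, and their RNA was amplified with T7 polymerase before labelling. The labels do not say whether the transfected cultures come from 1 clone, which promoter drives let-7a-3, or whether the parental cells received a vector, so let-7a-3 and the transfection itself cannot be told apart. Dyes were exchanged between arrays, with 1 orientation on arrays 1 and 3 and the opposite one on arrays 2 and 4, read from the source numbers in the labels.

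The deposited values are normalized log ratios. Neither the base of the logarithm nor the channel in the numerator is stated, so no fold change is given, and a positive value cannot be assigned to the let-7a-3 or to the parental culture. If the ratios run the other way, all signs below flip. Whether the dye-swapped arrays were turned to a common direction before deposit is also not stated. The values were therefore split into the shared component (the mean of the 4 arrays) and the alternating component (the mean of arrays 1 and 3 minus the mean of arrays 2 and 4, divided by 2). If the swapped arrays were turned before deposit, a difference between the cultures lies in the shared component and one that follows the dyes in the alternating one. If they were not turned, it is the other way round, and the shared values, those of ATP1B3 included, would follow the dyes and not the cultures. The deposited values do not tell these cases apart. Array medians lay between -0.0022 and 0.017 and standard deviations between 0.173 and 0.193. Over all probes, arrays of the same dye orientation correlated with Pearson r = 0.43 and 0.56, and arrays of opposite orientation with r between -0.16 and 0.055. The arrays give ratios and no levels, so the labelled cell line cannot be checked by its markers, and the number of arrays limits the precision.

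The sodium pump is an enzyme of the plasma membrane that uses ATP to carry sodium out of the cell and potassium into it. Its alpha subunit binds the ions and splits ATP, its beta subunit is a glycoprotein that the alpha subunit needs to fold and reach the cell surface, and FXYD proteins are small membrane proteins that adjust its activity. In lung epithelium the pump sits on the basolateral side and drives the uptake of sodium and fluid from the airspace. Fewer cells with an RNA and less RNA per cell cannot be told apart in such bulk samples.

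The overexpressed RNA and the promoters of the beta subunits with 2 clones each are shown first, from RefSeq on GRCh38.p14. The let-7a-3 hairpin lies on the plus strand at chr22:46112749-46112822, and the first line has the mature let-7a-5p in capitals. The second line is let-7a-5p itself, at chr22:46112752-46112773, with its seed (bases 2 to 8) in capitals.
let-7a-3 hairpin: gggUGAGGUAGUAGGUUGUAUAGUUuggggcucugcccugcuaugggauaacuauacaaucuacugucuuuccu
let-7a-5p: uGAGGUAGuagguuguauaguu

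The promoter window runs from 250 bases before to 50 bases after the annotated start of the gene. That of ATP1B3 lies at chr3:141876393-141876692 and that of ATP1B1 at chr1:169106440-169106739, both on the plus strand. They are printed because these are the beta subunit genes with 2 clones each, and a link to their log ratios was not tested. Capitals mark GC boxes, the letters GGGCGG or, for the other strand, CCGCCC.
ATP1B3: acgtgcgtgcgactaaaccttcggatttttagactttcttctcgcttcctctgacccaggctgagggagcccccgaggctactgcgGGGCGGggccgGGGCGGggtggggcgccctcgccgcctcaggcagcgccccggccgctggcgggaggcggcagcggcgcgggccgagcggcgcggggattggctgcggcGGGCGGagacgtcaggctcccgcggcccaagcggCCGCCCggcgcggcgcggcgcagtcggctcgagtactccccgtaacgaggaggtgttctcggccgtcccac
ATP1B1: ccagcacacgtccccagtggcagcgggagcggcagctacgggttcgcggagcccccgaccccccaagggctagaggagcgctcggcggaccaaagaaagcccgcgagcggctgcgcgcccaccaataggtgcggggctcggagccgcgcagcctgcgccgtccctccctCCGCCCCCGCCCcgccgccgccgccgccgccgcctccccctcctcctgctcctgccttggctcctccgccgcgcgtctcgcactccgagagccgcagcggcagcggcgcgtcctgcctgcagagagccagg
ATP1B3 held 4 GC boxes and ATP1B1 held 2, none of them overlapping. At least 1 GC box was present in 45.0% of 35116 promoter windows of this length, and 3 or more in 15.8%. A CCAAT box (CCAAT or ATTGG), found in 34.6% of the windows, occurred 1 time in each, and the TATA box (TATAAA or TTTATA), found in 11.5%, occurred in neither. GC content was 75.0% for ATP1B3 and 77.0% for ATP1B1, against a median of 58.7% over all windows. Of the 9 genes 6 had an entry in the promoter table. These matches are letters in a window and carry no measurement of binding.

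ATP1B3 encodes the beta 3 subunit of the pump and spans chr3:141876643-141926549. Its clone IMAGp998A08282 had log ratios of 1.14, 1.06, 1.36 and 1.04 on arrays 1 to 4. Its clone RZPDp201B1027D had log ratios of 1.05, 1.29, 1.33 and 1.29. All 8 values were above 1, and array 3 gave the highest value of both clones. The means were 1.15 ± 0.15 (SD, n = 4 arrays) for IMAGp998A08282 and 1.24 ± 0.13 for RZPDp201B1027D. Of all 26629 probes, 24 (0.0901%) had a shared log ratio of at least 1 in size, and 16 and 12 probes exceeded these clones in size. Within arrays 1 and 3 the means were 1.25 and 1.19, and within arrays 2 and 4 they were 1.05 and 1.29, for IMAGp998A08282 and RZPDp201B1027D in this order.

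The clones of ATP1B3 were compared next, since a gene measured by more than 1 clone allows a check within each array. The difference of IMAGp998A08282 minus RZPDp201B1027D was 0.09 on array 1, -0.23 on array 2, 0.03 on array 3 and -0.25 on array 4. IMAGp998A08282 was the higher clone on arrays 1 and 3 and the lower one on arrays 2 and 4. The mean difference was -0.09 ± 0.17 (SD, n = 4), smaller than its spread, and the exact two-sided sign-flip permutation test gave p = 0.5 (adjusted p = 0.56 over 9 clone pairs). On 4 arrays the smallest p that this exact test can give is 0.125. The difference had the opposite sign in the dye orientations, with 0.06 within arrays 1 and 3 and -0.24 within arrays 2 and 4.

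Among genes with a large value the clones often differed on these arrays, which is given as a description. ATP1B3 was chosen for its shared log ratio, which both of its clones enter, while the other genes were taken by their larger clone alone. The place of ATP1B3 among them is therefore no test of clone agreement. The clone difference of ATP1B3, 0.087 in size, stood beside a median of 0.071 over the 3108 genes with exactly 2 clones, and 58.3% of those genes had a smaller one. Most of these genes have both clones near 0. In 42 of the genes the larger clone reached 0.5 in size. Among these 42 the smaller clone divided by the larger had a median of 0.048, 15 genes had clones of opposite sign, and 5 genes had both clones past 0.5 with the same sign. For ATP1B3 the quotient was 0.93, and 2 of the 42 genes had a higher one. Of 9 genes whose larger clone reached 1 in size, ATP1B3 and the collagen chain gene COL4A6 had both clones at 1 or more with the same sign. The proteoglycan gene VCAN and COTL1 came close to that, with quotients of 0.86 and 0.75, and in the other 5 the smaller clone was under 0.2 in size or of opposite sign. In the plot of these genes ATP1B3 lies near the line of equal values, at the positive end.

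**Figure D1:**
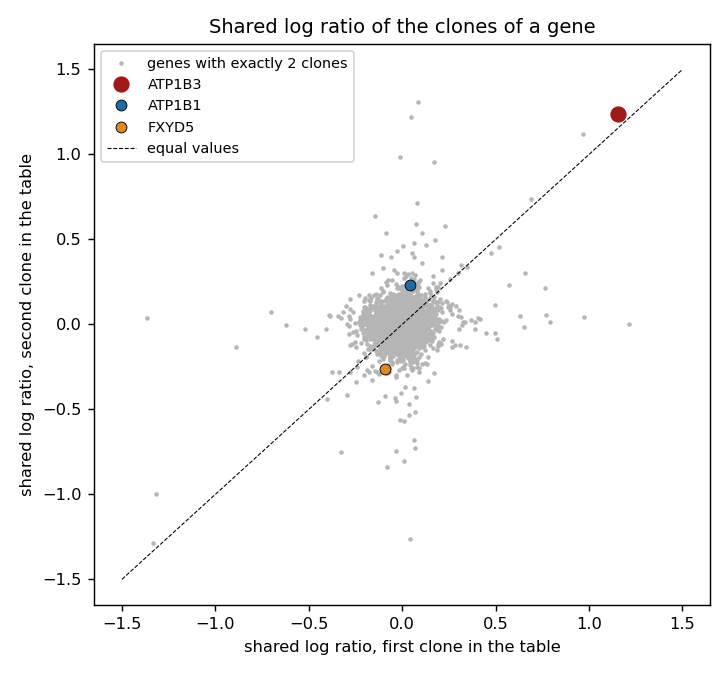
Shared log ratio of the first clone in the table (x axis) against the second clone (y axis) for the 3108 genes with exactly 2 clones, each point 1 gene and each value a mean of 4 arrays. ATP1B3 lies near the dashed line of equal values, at 1.15 and 1.24, while most genes with 1 large clone lie along the axes, and ATP1B1 and FXYD5 lie near the centre.

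ATP1B1, which encodes the beta 1 subunit, the main beta subunit of many epithelia, spans chr1:169106690-169132719. Its clone IMAGp998K18137 had log ratios of 0.16, 0.38, 0.13 and 0.26, positive on 4 of 4 arrays (mean 0.23 ± 0.11, SD, n = 4; limma adjusted p = 0.0562). Its clone IMAGp998D22372 had 0.10, 0.05, 0.17 and -0.15, positive on 3 of 4 arrays (mean 0.04 ± 0.14; limma adjusted p = 0.803). Neither clone passed the threshold of 0.05. The clone IMAGp998K18137 passed when the arrays were scaled to the same median absolute deviation (adjusted p = 0.0496) or quantile normalized (adjusted p = 0.0388). The ATP1B1 clones differed by -0.19 ± 0.21 (IMAGp998D22372 minus IMAGp998K18137; exact sign-flip permutation test, p = 0.25, adjusted p = 0.45). No value of either ATP1B1 clone reached the lowest value of ATP1B3, 1.04, a gene chosen for its large shared log ratio. Averaged over its clones ATP1B1 stood at 0.14 ± 0.06 (limma adjusted p = 0.182 over all genes).

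ATP1B4, on chromosome X, encodes a beta-family protein that in placental mammals resides in the inner nuclear membrane of muscle cells and no longer serves the pump. Its clone had log ratios of 0.01, -0.20, 0.16 and -0.18, positive on arrays 1 and 3 and negative on arrays 2 and 4. The shared component was -0.05 ± 0.17 (SD, n = 4; limma adjusted p = 0.744).

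**Figure D2:**
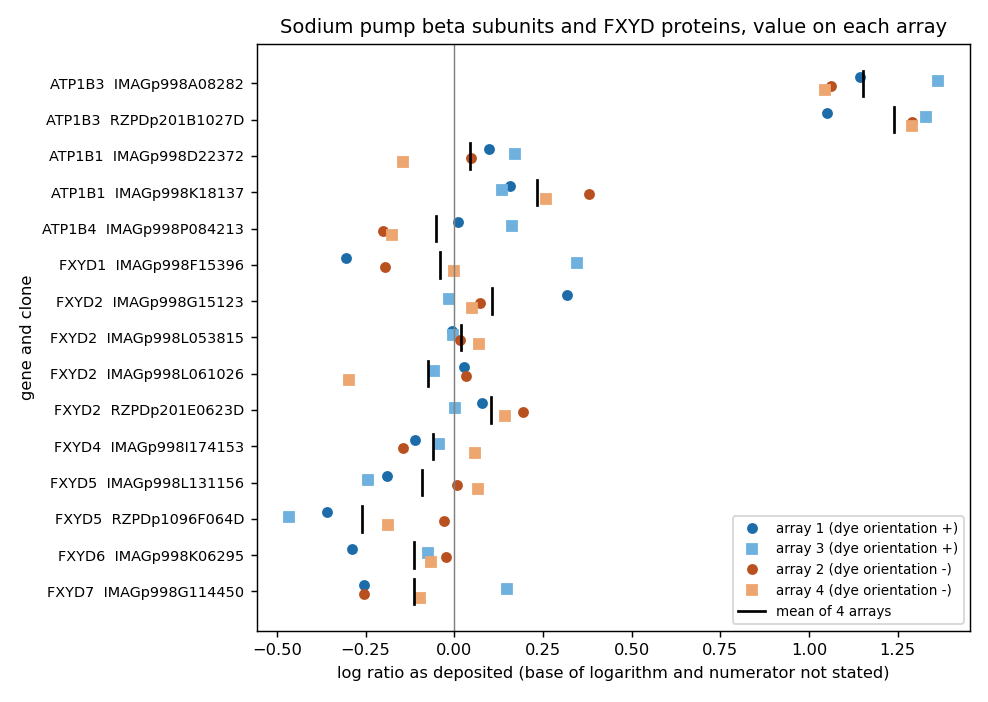
Log ratio as deposited (x axis) of each of the 15 clones (y axis) on arrays 1 to 4, with the mean of the 4 arrays as a black bar. The ATP1B3 clones lie between 1.04 and 1.36 and every value of the other 13 clones lies below 0.4, with the FXYD5 clone RZPDp1096F064D having the lowest mean, -0.26.

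FXYD5, also called dysadherin, is a glycoprotein that modulates the pump and reduces cell adhesion, and it spans chr19:35154735-35169881. Its clone RZPDp1096F064D had log ratios of -0.36, -0.03, -0.47 and -0.19, negative on 4 of 4 arrays. Arrays 1 and 3 were lower than arrays 2 and 4. The shared component was -0.26 ± 0.19 (SD, n = 4; limma adjusted p = 0.0427). This call was lost without array 2 (-0.30, limma adjusted p = 0.130), without array 3 (-0.23, adjusted p = 0.0695), without array 4 (-0.22, adjusted p = 0.359), without the dye term (adjusted p = 0.334) and without moderation (adjusted p = 0.493). The other FXYD5 clone, IMAGp998L131156, had -0.19, 0.01, -0.24 and 0.07, negative on arrays 1 and 3 and positive on arrays 2 and 4 (mean -0.09 ± 0.15; limma adjusted p = 0.520). It was the higher FXYD5 clone on 4 of 4 arrays, by 0.17 ± 0.09 (exact sign-flip permutation test, p = 0.125, the smallest possible, adjusted p = 0.28). Averaged over both clones FXYD5 stood at -0.17 ± 0.17 and did not pass (limma adjusted p = 0.071 over all genes).

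FXYD2, the gamma subunit, which lowers the sodium affinity of the pump in kidney tubules, had 4 clones. Their means were 0.11 ± 0.15 (IMAGp998G15123), 0.10 ± 0.08 (RZPDp201E0623D), 0.02 ± 0.04 (IMAGp998L053815) and -0.07 ± 0.15 (IMAGp998L061026; SD, n = 4 arrays each). None passed in limma (adjusted p between 0.440 and 0.912), and RZPDp201E0623D alone was positive on 4 of 4 arrays. The highest single value, 0.32 for IMAGp998G15123 on array 1, and the lowest, -0.30 for IMAGp998L061026 on array 4, came from different clones. The 6 pairs of FXYD2 clones differed by at most 0.18 in size, with exact p between 0.125 and 1.

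The other FXYD genes had 1 clone each. FXYD1, or phospholemman, which regulates the pump in heart and muscle, had -0.31, -0.20, 0.34 and -0.00055 on arrays 1 to 4, and its SD of 0.29 was the widest of the 15 clones. FXYD6 had -0.29, -0.02, -0.07 and -0.07, negative on 4 of 4 arrays (mean -0.11 ± 0.12). FXYD7, known from brain, had -0.26, -0.25, 0.15 and -0.10 (mean -0.11 ± 0.19), and FXYD4, known from kidney collecting duct, had -0.11, -0.15, -0.04 and 0.06 (mean -0.06 ± 0.09; SD, n = 4 for each). None of these 4 passed in limma, with adjusted p between 0.451 and 0.899. FXYD1, FXYD7 and FXYD5 stand next to each other on chromosome 19 between bases 35137188 and 35169881.

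In the shared component the 2 ATP1B3 clones were not tested. Over all probes 2.07% passed, 550 of 26629, with 1.12% positive and 0.946% negative. Of the 13 clones of the other 8 genes 1, of FXYD5, passed in limma, and 2 had an unadjusted p under 0.05, against 12.5% of all probes. Their shared log ratios ran between -0.26 and 0.23 with a median of -0.05, against a median of 0.008 over all probes. In size their median was 0.090, against 0.051 over all probes. With the same sign on 4 of 4 arrays were 4 of the 13, against 14.1% of all probes.

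In the alternating component, which the naming of ATP1B3 did not use, 0 of the 15 clones passed in limma, against 4.28% of all probes (2.81% positive and 1.48% negative). Before adjustment 3 of the 15 had p under 0.05, against 25.2% of all probes. They were ATP1B4 (0.14, limma adjusted p = 0.141) and the FXYD5 clones RZPDp1096F064D (-0.15, adjusted p = 0.123) and IMAGp998L131156 (-0.13, adjusted p = 0.154). The ATP1B3 clones had alternating components of 0.10 for IMAGp998A08282 (limma adjusted p = 0.281) and -0.05 for RZPDp201B1027D (adjusted p = 0.618), of opposite sign. Over the 15 clones the alternating component ran from -0.15 to 0.14. Its median size was 0.064, against 0.074 over all probes.

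**Figure D3:**
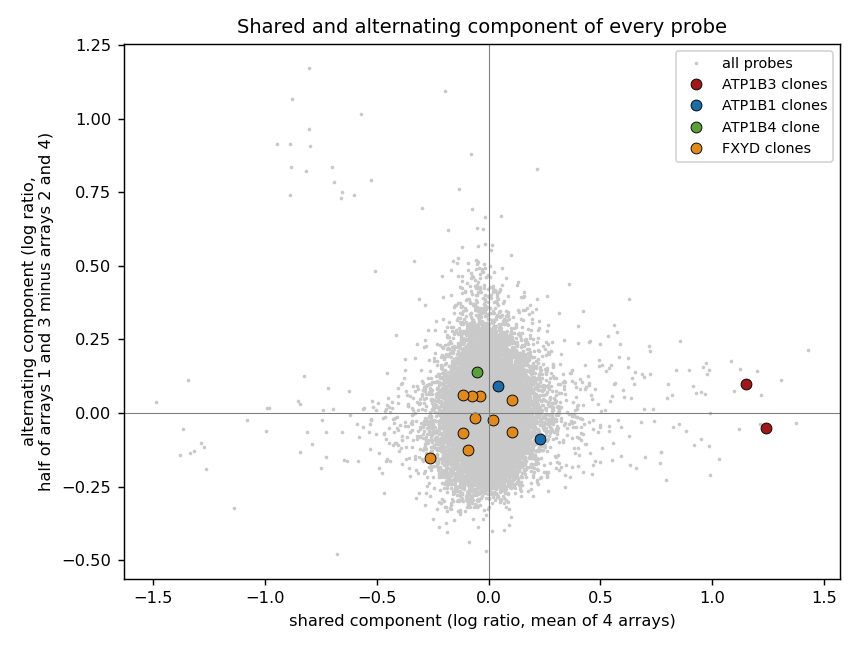
Shared component (x axis, mean log ratio of 4 arrays) and alternating component (y axis, mean of arrays 1 and 3 minus the mean of arrays 2 and 4, divided by 2) of every probe in grey, with the 15 member clones coloured as ATP1B3, ATP1B1, ATP1B4 or FXYD. The ATP1B3 clones stand at 1.15 and 1.24 on the x axis with alternating components of 0.10 and -0.05, and the other 13 clones lie within the cloud of all probes.

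Genes near ATP1B3 on chromosome 3 were read to see how the surrounding region behaved. The GRCh38.p14 gene table lists 41 other genes whose lower coordinate, on either strand, lies within 1 Mb of the start of ATP1B3. Of these 14 are protein-coding and 7 were measured. Their shared log ratios had a median of -0.02 and none passed in limma, where 3.04% of all genes did (1 of the 7 was under 0.05 before adjustment). The nearest by this measure, TFDP2, a partner of E2F factors whose lower coordinate lies 67.8 kb away, had -0.23, 0.06, 0.08 and 0.02 on arrays 1 to 4. RASA2, a RAS GTPase-activating protein, stood at -0.05 ± 0.11 (SD, n = 4 arrays) over 6 clones, and the exonuclease XRN1 at -0.02 ± 0.04 over 3. SLC25A36, a mitochondrial carrier, and SPSB4 stood at 0.02 ± 0.06 and 0.03 ± 0.06. PCOLCE2, an enhancer of procollagen processing, had -0.04, -0.24, -0.62 and -0.55, the lowest mean of the 7 (-0.36 ± 0.27; limma adjusted p = 0.0905). The cation channel TRPC1 had 0.32, -0.21, 0.41 and -0.44, with opposite signs in the dye orientations, and passed in the alternating component (0.35, limma adjusted p = 0.0246), where 3.29% of all genes passed. It did not pass in limma without array 4 (adjusted p = 0.0955). Nor did it pass without the shared term, where the alternating component was fitted alone (limma adjusted p = 0.0900). ATP1B3, which was chosen for its value, stood at 1.20 ± 0.11 averaged over its clones. Of all genes 0.040% had a shared log ratio larger in size, so a lower value is what nearly any gene shows.

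**Figure D4:**
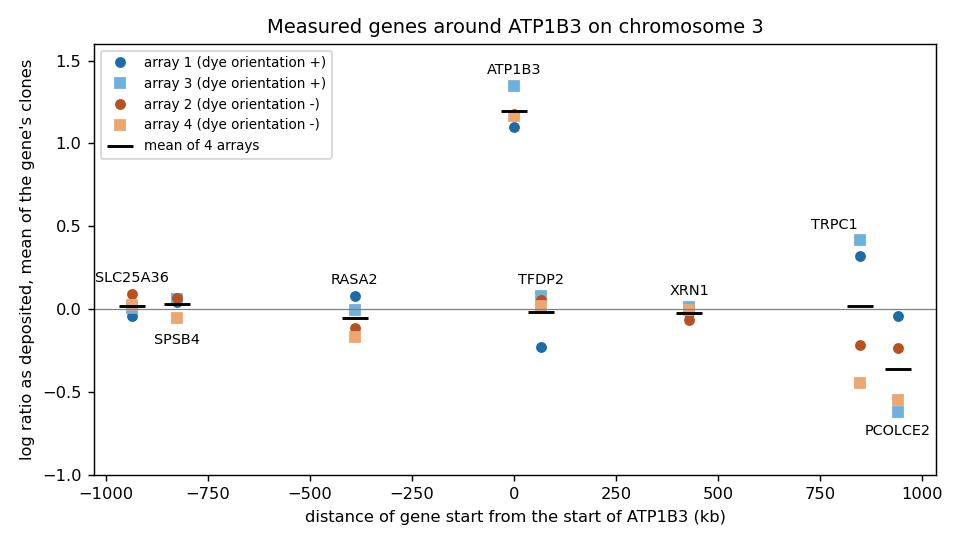
Log ratio of the 7 measured genes within 1 Mb of ATP1B3 and of ATP1B3 itself (y axis, mean of the gene's clones) against the distance of their starts from that of ATP1B3 in kb (x axis), with 1 point per array and the mean as a bar. The start is the lower coordinate of a gene on either strand. ATP1B3 lies at 1.20 on average and the means of the others lie between -0.36 and 0.03.

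The 5 genes whose 4 values were nearest to those of ATP1B3, by Euclidean distance between gene means over the 4 arrays, all had 1 clone and positive values on 4 of 4 arrays. XBP1, which drives secretory genes under endoplasmic reticulum stress, was nearest at a distance of 0.29 (mean 1.12 ± 0.20, SD, n = 4). The receptor NOTCH3 followed at 0.31 (mean 1.10 ± 0.09). LRP11 (0.42), CLDND2 (0.50) and DKK1, an inhibitor of Wnt signalling (0.55), came next. The median distance of all other genes was 2.40. This distance reads the size of the shared log ratio as well as its pattern over the arrays.

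Genes that act with the sodium pump were then read from 4 lists, averaged over their clones. The lists were chosen with earlier results of these data known, so their counts are given as a description. Of 118 measured genes 7 passed in the shared component, 5 with positive and 2 with negative log ratios, against 3.04% of all genes (1.63% positive and 1.41% negative). Their median was 0.012, against 0.007 over all genes.

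Among 17 related P-type ATPases, which share the catalytic cycle of the pump, ATP2A2, the calcium pump SERCA2 of the endoplasmic reticulum, passed with 0.36, 0.13, 0.35 and 0.23 on arrays 1 to 4 (mean 0.27 ± 0.11, SD, n = 4; limma adjusted p = 0.0134). All its values were positive. The call was lost without array 2 (adjusted p = 0.0527), without array 4 (adjusted p = 0.110) and without the dye term (adjusted p = 0.0903). The other 16 did not pass, and the median of the list was 0.057. In the alternating component limma called none of the 17. Before adjustment 5 of the 17 had p under 0.05, as had 3197 of 12483 genes in all, and the beta subunit of the gastric proton pump, ATP4B, came nearest (-0.15, limma adjusted p = 0.0765).

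Of 40 sodium channels and sodium-coupled carriers, which bring in the sodium that the pump removes, 2 passed and 38 did not (median 0.006). SLC38A2, a carrier that takes up neutral amino acids with sodium, had 0.68, 0.95, 0.96 and 0.93 (mean 0.88 ± 0.14, SD, n = 4; limma adjusted p = 9.69e-05). Like ATP1B3 it was positive on 4 of 4 arrays, and it had the largest shared log ratio of the 4 lists. SLC23A2, a sodium-coupled vitamin C carrier, had 0.33, 0.37, 0.54 and 0.38 over its 2 clones (mean 0.40 ± 0.09; limma adjusted p = 0.00325). Its clone IMAGp998G13229 had 0.94, 0.31, 0.76 and 0.28 (mean 0.57 ± 0.33; limma adjusted p = 0.000448 over all probes). Its clone RZPDp202E048D had -0.28, 0.42, 0.31 and 0.48 (mean 0.23 ± 0.35; adjusted p = 0.278) and did not pass. Their alternating components had opposite signs, 0.28 and -0.22, so the averaged gene had a narrower SD than either clone. As genes SLC38A2 and SLC23A2 passed under each of the 12 alternatives run on single genes.

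Of 26 genes of potassium and chloride exit, which recycle the ions around the pump, LRRC8A and CLIC4 passed, both negative, and 24 did not (median 0.004). LRRC8A, a subunit of the volume-regulated anion channel, had -0.16, -0.37, -0.18 and -0.36 (mean -0.27 ± 0.11, SD, n = 4; limma adjusted p = 0.0109), a call lost without array 2 (adjusted p = 0.0805), without array 4 (adjusted p = 0.0713) and without the dye term (adjusted p = 0.0967). CLIC4, an intracellular channel-like protein, had -0.10, -0.34, 0.0015 and -0.35 (mean -0.20 ± 0.17; limma adjusted p = 0.0490). That call was lost without array 2 (adjusted p = 0.262), without array 4 (adjusted p = 0.261), without the dye term (adjusted p = 0.436) and where genes were read from the probe with the largest statistic (adjusted p = 0.0532).

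Of 35 regulators, partners and anchors of the pump NFAT5 and SGK1 passed, both positive, and 33 did not (median 0.007). NFAT5, a transcription factor of the response to osmotic stress, had 0.22, 0.29, 0.25 and 0.27, the tightest of the 7 called genes (mean 0.26 ± 0.03, SD, n = 4; limma adjusted p = 0.0136), and did not pass without array 2 (adjusted p = 0.0982) or array 4 (adjusted p = 0.0862). SGK1, a kinase that raises the surface abundance of sodium channels and of the pump, had 0.66, -0.11, 0.65 and 0.06. Arrays 1 and 3 were high and arrays 2 and 4 near 0, and it passed in the shared component (0.32 ± 0.40; limma adjusted p = 0.00901) and in the alternating one (0.34, adjusted p = 0.0236). The shared call of SGK1 was lost without array 4 (limma adjusted p = 0.0684) and without the dye term (adjusted p = 0.566). Its alternating call was lost without array 2 (limma adjusted p = 0.0912) and without the shared term (adjusted p = 0.229).

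**Figure D5:**
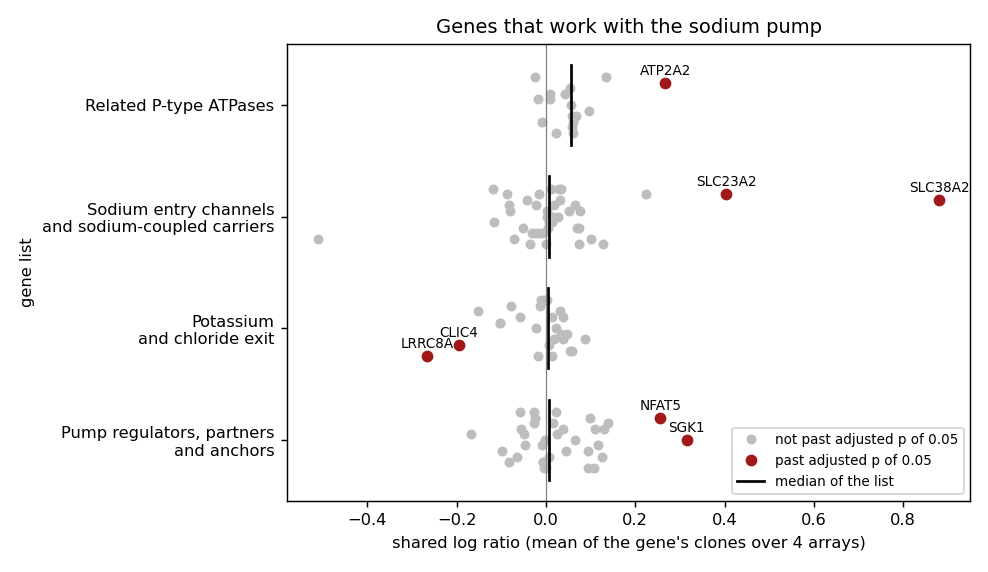
Shared log ratio (x axis, mean of a gene's clones over 4 arrays) of the measured genes of the 4 lists (y axis; points are spread vertically for legibility), with genes past a limma adjusted p of 0.05 in red and named, and the median of each list as a black bar. The medians lie between 0.004 and 0.057, and SLC38A2 stands furthest out at 0.88.

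In the alternating component 5 of the 118 genes passed in limma, 3 positive and 2 negative, against 3.29% of all genes (1.9% positive and 1.39% negative). Beside SGK1 these were CLCN5, an endosomal chloride and proton exchanger (0.21, limma adjusted p = 0.0456), and ITPR2, a calcium release channel (0.21, adjusted p = 0.0394), on the positive side. The ITPR2 clones differed in sign, with 0.49 for RZPDp201C0515D (limma adjusted p = 0.0108 over all probes) and -0.06 for IMAGp998H17200 (adjusted p = 0.593). SLC1A5, a sodium-coupled glutamine carrier (-0.28, adjusted p = 0.0301), and SLC12A7, a potassium and chloride cotransporter (-0.19, adjusted p = 0.0480), were negative. SLC1A5 had -0.27, 0.15, -0.38 and 0.30 on arrays 1 to 4. None of the 5 calls held without array 2 or without the shared term, where limma adjusted p lay between 0.0825 and 0.246. That of SGK1 alone held without array 4. SLC12A7 also lost its call after median centring (adjusted p = 0.0537).

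Markers of cell types were read for differences only. KRT8, an epithelial keratin, passed in the shared component (0.39, limma adjusted p = 0.00698) among 7 epithelial markers, and NKG7 (-0.26, adjusted p = 0.0141) among 3 markers of blood cells, where 3.04% of all genes passed. The other 6 epithelial markers ran from -0.05 (CDH1) to 0.09 (EPCAM), and the blood markers PTPRC and CD14 stood at 0.026 and 0.024. None of 6 fibroblast and 4 endothelial markers passed in limma. Before adjustment 1 of 6 and 1 of 4 had p under 0.05, as had 1822 of 12483 genes in all. TEK, an endothelial receptor, passed in the alternating component (-0.20, limma adjusted p = 0.0439). Neither NKG7 nor TEK passed in limma without array 2 (adjusted p = 0.0702 and 0.174) or without array 4 (adjusted p = 0.108 and 0.217). NKG7 also did not pass without the dye term (limma adjusted p = 0.103), nor TEK without the shared term (adjusted p = 0.216). The part of other cell types in the values of the pump genes was not tested.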

How the data were processed

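Per the series design text, ArrayMagic and variance-stabilizing normalization were applied by the authors. That normalization compresses the ratios of dim spots. The deposited table holds 1 log ratio per probe and array, with no missing value. Software versions and spot filters: not given in the sources used here. Background correction and filters on dim probes could not be varied.

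The members and gene lists were chosen with earlier results of these data known. Deposited log ratios were used as given. Names came from the platform annotation. The GRCh38.p14 table held the gene ID of 20963 of the 20976 probes with 1 symbol and changed 0 symbols. Gene values are means over clones. limma 3.58.1 (R 4.3.3) was run on all probes, and on all genes, with a shared and an alternating coefficient on 2 residual degrees of freedom, with empirical Bayes moderation, two-sided tests and Benjamini-Hochberg adjustment over the whole table at 0.05. The design text counts 4 cultures per line as biological replicates. Whether they came from separate transfections is not stated. The p-values rest on the spread between these 4 arrays, pooled by the moderation with that of all probes or all genes. The pooled part counted for 7.22 degrees of freedom over probes and 5.89 over genes, beside the 2 residual ones. Each SD also holds the other component. The fit was checked on simulated data.

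Named were all member clones, up to 4 called genes per list and component with the largest moderated statistic, the 5 genes nearest to ATP1B3, measured genes within 1 Mb of it and called markers. Where none passed, the gene with the largest statistic was named. COL4A6, VCAN, COTL1 and the markers that did not pass were named after their values were seen. Alternatives left out 1 array at a time, 1 dye orientation, or the term of the other component. For shared values that term was the dye term, and for alternating values it was the shared term. Other alternatives were median centring, scaling to the same median absolute deviation, robust moderation (statmod 1.5.0), quantile normalization, array weights and no moderation. Further ones used probes with 1 symbol, thresholds of 0.01 and 0.1, a size of at least 0.5, or the strongest probe for each gene. The strongest probe was picked by the statistic that was then tested. Figures used matplotlib 3.10.9 in Python 3.11.15.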

Additional observations from a re-analysis of the deposited data

Results flagged for a closer look

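Of 41 sets of 4 values tested for a single array far from the others, 2 stood out, and chance flags about 1 in 20. For the ATP1B3 clone RZPDp201B1027D array 1 (1.05) lay below the other arrays (1.29 to 1.33), a gap of 0.862 of the whole range. For SLC38A2 array 1 (0.68) lay below the other arrays (0.93 to 0.96), a gap of 0.907 of the range. Without array 1 the mean of that ATP1B3 clone was 1.30. The other ATP1B3 clone had its second highest value on array 1.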

How the results depend on the processing

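The ATP1B3 clones kept their sign and moved by less than 1 SD under the alternatives run on their values. These were median centring, scaling, quantile normalization, and leaving out 1 array or 1 dye orientation. Array weights were not run on these values. The clones had means of 1.08 to 1.19 (IMAGp998A08282) and 1.21 to 1.30 (RZPDp201B1027D) when 1 array was left out. Their difference lay between -0.15 and -0.03 when 1 array was left out and was 0.063 on arrays 1 and 3 alone. Of the 13 clones of the other genes 1 passed in the shared component. In limma 2 passed with scaling to the same median absolute deviation, with quantile normalization and at a threshold of 0.1, and 0 passed without the dye term, without moderation, at 0.01 and at a size of 0.5, with 2 to 4 at an unadjusted p under 0.05. When 1 array was left out 0 to 1 passed in limma, with 2 to 6 at an unadjusted p under 0.05. In the alternating component 0 member clones passed under every alternative run, with 0 to 6 at an unadjusted p under 0.05 in limma. Over all probes the shared count was 550, and 231 without the dye term, 0 without moderation (2514 at an unadjusted p under 0.05 in limma), 248 at a threshold of 0.01, 867 at 0.1, 131 at a size of 0.5, and 271 to 884 when 1 array was left out. The alternating count was 1141, and 102 without the shared term, 4 without moderation, 24 at 0.01 and 3154 at 0.1. It was 25 at a size of 0.5, and 113 to 1874 when 1 array was left out. Of the genes of the 4 lists 7 passed in the shared component, and 3 without the dye term, 15 by the probe with the largest statistic, and 3 to 18 when 1 array was left out. In the alternating component 5 passed, and 0 without the shared term (19 at an unadjusted p under 0.05 in limma). By the probe with the largest statistic 23 passed, and 0 to 20 when 1 array was left out (18 unadjusted in limma without array 2, where 0 passed). How many of all genes passed under these alternatives was not counted, so these list counts, shared and alternating, have no share beside them. Leaving out 1 array turned the sign of values that had not passed: the shared value of ATP1B1 clone IMAGp998D22372 (-0.0051 without array 2, up to 0.090), FXYD1 (0.12 without array 1, 0.0091 without array 2) and FXYD2 clone IMAGp998L061026 (0.0088 without array 4, down to -0.16), and the alternating value of ATP1B3 clone RZPDp201B1027D (0.019 without array 1, down to -0.12), FXYD1 (-0.10 without array 3, up to 0.22), FXYD2 clones IMAGp998G15123 (-0.037 without array 1, up to 0.13) and IMAGp998L061026 (-0.023 without array 4, up to 0.14), FXYD4 (0.00065 without array 1, 0.035 without array 4, down to -0.067) and FXYD7 (-0.040 without array 3, up to 0.16). By the probe with the largest statistic ATP1B1 (0.23, limma adjusted p = 0.0268) and FXYD5 (-0.26, adjusted p = 0.0193) passed as genes. That probe was picked by the statistic then tested, which favours a low p, so these passes do not count as support. Averaged over its clones FXYD5 passed in limma when array 1 (-0.20, adjusted p = 0.0146) or array 3 (-0.15, adjusted p = 0.0453) was left out. The cause of these changes was not tested. No paired analysis was possible because all 4 arrays are 1 group and each array already pairs its channels. The table has no intensities, so signal over background is unknown.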
